A study of Mus musculus with 2 samples.

Results

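Laminins and the proteins that tie them into basement membranes were followed as 10 genes, Lama2, Lama4, Lama5, Lamb1, Lamb2, Lamc1, Nid1, Nid2, Hspg2 and Agrn. They are a list of gene symbols, and all 10 were found among the 32287 features of the matrix. Their transcripts were read in Schwann, endothelial, mural, satellite and stromal cells of denervated mouse skeletal muscle. The cells came from S100GFPtg mice, which carry green fluorescent protein under the S100B promoter, and no gene was deleted in them. The tibialis anterior and gastrocnemius of the hind limb were harvested at day 7 after crush of the sciatic nerve and digested with enzymes, and live cells (GFP+ and negative for propidium iodide) were sorted into 1 droplet library with 3′ tags. The animals were male. The series gives an age of 2 months, as do the study's results for these animals, while the study's methods give an older range for nerve crush. The methods also speak of pooled animals where the series text speaks of a single crushed mouse, so the number of animals is not certain. The second library of the series, GFP- cells of the same injury, entered only through its list of barcodes, since its counts were not analysed here.

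The GFP+ library held 36400 barcodes and 170648616 unique molecular identifiers (UMIs), with a median of 2130 UMIs a barcode. Of the 19553 barcodes with at least 2000 UMIs, 18528 also had more than 200 genes and under 10% mitochondrial UMIs. A class took barcodes with at least 3 UMIs over at least 2 genes of its marker list, none of which is a member, and left out those that passed the gate of another class or drew 0.1% or more of their UMIs from 6 immune genes. This gave 93 Schwann, 79 endothelial, 63 mural, 246 satellite and 2130 stromal cells, with median depths of 6798, 5002, 8006, 9014 and 6069 UMIs. A separate tenocyte class of 434 cells and an immune class of 10596 cells served as references, the second one as a measure of background. Check markers that no gate used were highest in their own class for 9 of 11 Schwann genes (S100b and Ncam1 were not), 8 of 8 endothelial, 7 of 8 mural, 6 of 6 satellite and 4 of 7 stromal genes. The exceptions among stromal genes, Col1a1, Col1a2 and Dcn, were higher in tenocytes. Between the 2 libraries of the series 372 barcode sequences were shared, of which 3 were Schwann, 2 satellite and 16 stromal cells.

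Check genes of other classes were detected in every class. Whether these UMIs were RNA of other cells or the cells' own transcripts was not tested. The 6 immune check genes summed to between 266 CPM (counts for each 1000000 UMIs of the class) in Schwann cells and 843 CPM in stromal cells, against 24247 CPM in immune cells. The 7 stromal check genes stood at 5.90% of their stromal level in Schwann cells, 3.87% in endothelial cells, 5.85% in mural cells and 3.15% in satellite cells. Single stromal check genes ranged from 2.04 to 14.6% in Schwann cells and from 0.116 to 14.5% in satellite cells. Among the values inside these ranges were Lamb1 (12.5%) and Nid1 (13.5%) of Schwann cells and Lamb2 (12.5%) of satellite cells. The interval of Lamb2 in Schwann cells (10.5 to 24.5%) reached into the range. The summed shares are set beside the member values they touch, and their part in those values was not tested. With 1 library there is no replicate and no p-value, and every interval is a 95% interval that covers counting error only.

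Basement membranes are thin sheets of extracellular matrix that surround muscle fibres, Schwann cells, vessels and fat cells. Laminins are trimers of an α, a β and a γ chain that assemble on cell surfaces, nidogens and perlecan bridge the laminin sheet to the collagen IV network, and agrin binds laminin and, in its neural form, organises acetylcholine receptors at the neuromuscular junction. In muscle, the α2 chain is the laminin of the fibre's basement membrane and its loss causes congenital muscular dystrophy, while the α4 and α5 chains are known from vessels, nerve and the synaptic part of the fibre's sheath.

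Stretches of promoter are shown for 4 members that went together in part across the classes described here, Lama5 with Agrn, both higher in Schwann, endothelial and mural cells than in stromal cells, and Nid1 with Lamb1, both highest in stromal cells. The endothelial Agrn value rested on 8 UMIs, and in satellite cells Lama5 was higher than in stromal cells while Agrn was not. They are RefSeq sequences of GRCm38.p6, 5′ to 3′, trimmed to the bases before the annotated start of the gene, and capitals mark GC boxes (GGGCGG or its reverse complement CCGCCC, overlapping matches included). The Lama5 stretch is chr2:180225905-180226109 on the minus strand, the Agrn stretch chr4:156197534-156197738 on the minus strand, the Nid1 stretch chr13:13437352-13437601 on the plus strand and the Lamb1 stretch chr12:31265043-31265145 on the plus strand.
Lama5: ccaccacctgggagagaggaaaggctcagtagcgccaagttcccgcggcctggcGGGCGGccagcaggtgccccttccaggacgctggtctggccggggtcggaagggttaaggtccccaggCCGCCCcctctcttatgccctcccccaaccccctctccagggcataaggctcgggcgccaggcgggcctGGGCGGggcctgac
Agrn: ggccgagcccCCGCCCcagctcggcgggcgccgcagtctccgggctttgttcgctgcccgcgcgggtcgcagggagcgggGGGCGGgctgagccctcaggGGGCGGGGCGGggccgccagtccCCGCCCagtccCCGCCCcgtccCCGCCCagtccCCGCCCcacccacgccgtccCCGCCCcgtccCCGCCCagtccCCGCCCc
Nid1: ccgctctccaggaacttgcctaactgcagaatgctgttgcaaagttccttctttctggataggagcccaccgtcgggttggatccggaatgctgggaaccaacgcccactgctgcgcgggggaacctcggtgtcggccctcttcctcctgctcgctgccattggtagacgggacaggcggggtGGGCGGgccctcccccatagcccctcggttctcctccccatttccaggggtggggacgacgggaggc
Lamb1: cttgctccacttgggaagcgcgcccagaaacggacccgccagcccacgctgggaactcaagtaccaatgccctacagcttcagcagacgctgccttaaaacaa
The printed stretches held 3 GC boxes for Lama5, 11 for Agrn, 1 for Nid1 and 0 for Lamb1. In the full windows of 300 bases, from 250 before to 50 after a transcript start, GC boxes numbered 4 for Lama5, 12 for the Agrn window printed here, 1 for Nid1 and 2 for Lamb1, and 35.7% of the 32851 RefSeq promoter windows held at least 1. The table held a window for 7 of the 10 members (none for Lama4, Lamc1 and Nid2) and a second window for Agrn, at another transcript start, with 2 boxes. Among the others, Hspg2 had 5 boxes, Lama2 had 1 and Lamb2 had none. Both pairs therefore differed within themselves in this count. A match is a description of the letters in the window.

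Lama2 encodes the α2 chain (chromosome 10, positions 26981285 to 27617191 of GRCm38.p6). Its level was 1084 CPM (1070 to 1098) in stromal cells, 769.9 CPM (735 to 806) in satellite cells, 199.5 CPM (168 to 235) in Schwann cells, 83.6 CPM (60.5 to 113) in endothelial cells and 69.4 CPM (48.0 to 96.9) in mural cells. Tenocytes held 470.4 CPM and immune cells 26.0 CPM. Stromal and satellite cells were the high classes, and the intervals of endothelial and mural cells overlapped, with a log2 difference of 0.27 (−0.41 to 0.96) between them. The low values rested on few cells. A single barcode gave 62.8% of the 43 UMIs in endothelial cells and 38.2% of the 34 UMIs in mural cells, and the levels without it were 31.8 and 43.2 CPM. Both levels also moved with the choice of cells. A gate of 5 UMIs over 3 genes gave 16.6 CPM in endothelial and 129.5 CPM in mural cells, barcodes of at least 5000 UMIs gave 4.66 CPM in mural cells, and keeping barcodes that passed several gates gave 403 and 546 CPM, with Schwann cells at 375 CPM, below the endothelial level. With every barcode of equal weight mural and Schwann cells were both at 152 CPM. As a share of the stromal level, Schwann cells held 18.4% (15.5 to 21.7%) and endothelial cells 7.71% (5.58 to 10.4%), both above the summed share of the stromal check genes there. Single check genes ranged from 1.96 to 8.40% in endothelial cells, a range that includes the Lama2 value, and this value turned on the 1 barcode named above. Mural cells held 6.40% (4.43 to 8.94%), an interval that includes the summed share.

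Lama4, the α4 chain (chromosome 10, 38965515 to 39110188), showed a different order. It stood at 280.2 CPM (273 to 288) in stromal cells, 241 CPM (200.5 to 287) in endothelial cells, 238.5 CPM (204 to 277) in Schwann cells, 63.2 CPM (43.0 to 89.8) in mural cells and 0.42 CPM (0.011 to 2.33) in satellite cells. Neighbours among the 3 highest classes did not differ beyond their counting error, with a log2 ratio of 0.22 (−0.04 to 0.49) for stromal to endothelial cells and of 0.02 (−0.33 to 0.36) for endothelial to Schwann cells. Schwann cells were below stromal cells by a small margin (log2 −0.23, −0.46 to −0.01), which turned with every barcode of equal weight (258 against 235 CPM). Satellite cells were the exception. They held 1 UMI of Lama4 in 2391204, below the 5.53 CPM of immune cells, and the log2 ratio of satellite to stromal cells was −9.39 (−14.7 to −6.91).

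Lama5, the α5 chain (chromosome 2, 180176373 to 180225904), was highest in mural cells. It measured 147 CPM (115 to 185) there, 36.9 CPM (22.2 to 57.7) in endothelial cells, 22.3 CPM (12.8 to 36.2) in Schwann cells, 8.78 CPM (5.44 to 13.4) in satellite cells and 0.52 CPM (0.26 to 0.94) in stromal cells. Tenocytes (0.51 CPM) and immune cells (0.32 CPM) did not differ from stromal cells beyond counting error. The stromal value came from 11 UMIs in 8 of 2130 cells. All 4 other classes exceeded it by 4.07 to 8.13 on the log2 scale, with mural cells the farthest (log2 8.13, 7.21 to 9.20), and endothelial and Schwann cells overlapped. With a divisor of 11 UMIs the size of the mural ratio was loose. It ran from 55.1-fold with barcodes of several gates kept, where mural cells were at 46.0 CPM and endothelial cells at 38.7 CPM, to 406-fold without the barcode that held most UMIs.

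**Figure D1:**
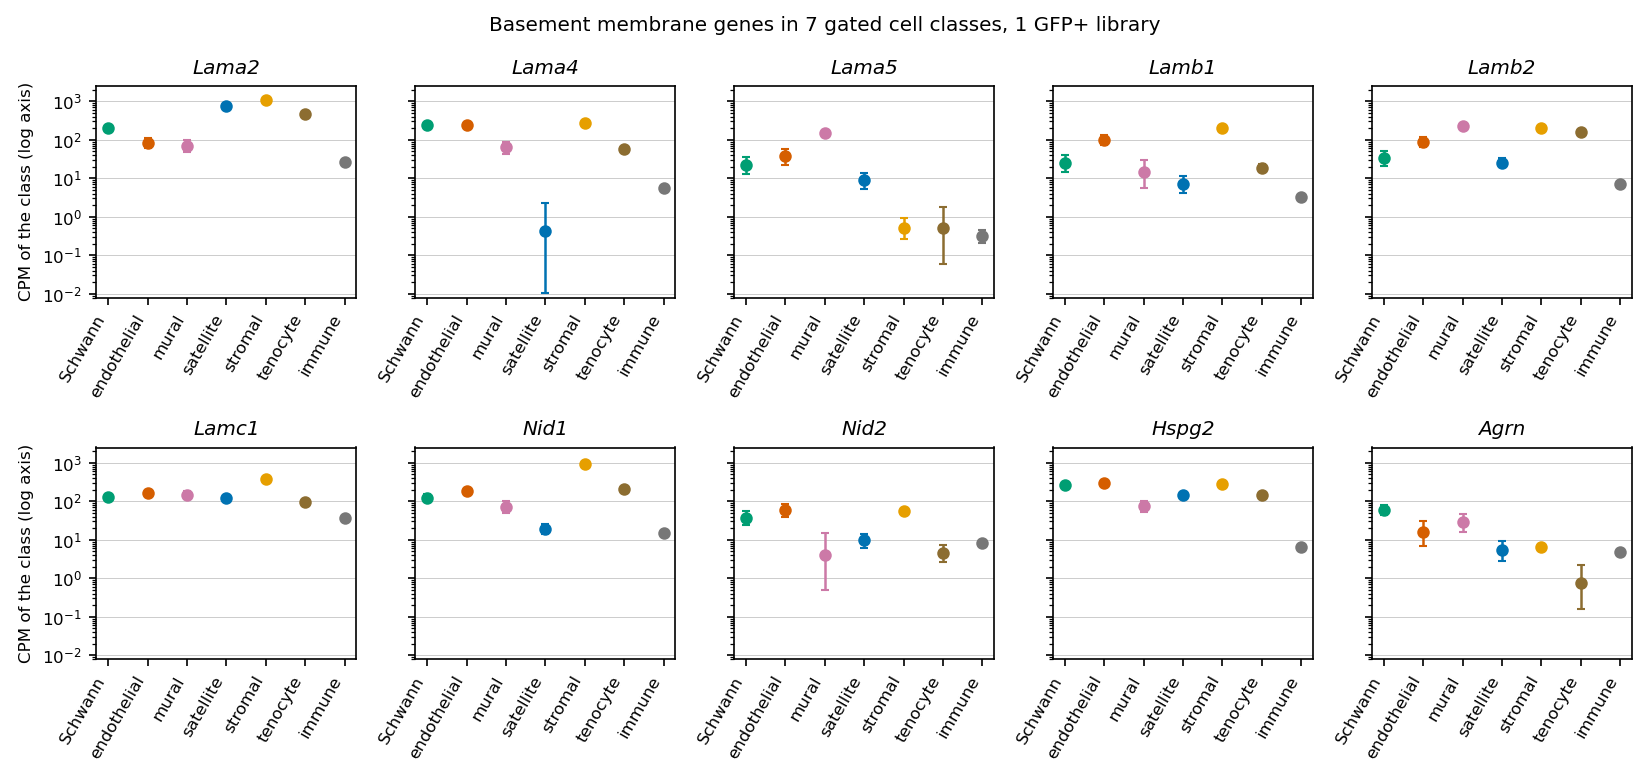
Level of each of the 10 genes in 7 gated classes of the GFP+ library, as CPM on a log axis. Points are summed levels and bars are exact Poisson 95% intervals. Lama4 falls to 0.42 CPM in satellite cells, where Lama2 is at 769.9 CPM, and Lama5 is highest in mural cells at 147 CPM.

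Read as shares of the summed UMIs of the 3 α chain members, the classes separated. Lama1 and Lama3, which are α chains but not members, were not counted. Lama3 had 52 UMIs (21.75 CPM) in satellite and 23 UMIs (44.7 CPM) in endothelial cells, where Lama5 had 21 and 19 UMIs. Stromal cells held 35 UMIs of Lama3, mural cells 3 and Schwann cells 0. Lama2 made up 98.8% (98.2 to 99.3%) of 1863 α chain UMIs in satellite cells and 79.4% (78.9 to 79.9%) of 28644 in stromal cells. Lama4 made up 66.7% (59.4 to 73.4%) of 186 UMIs in endothelial cells, and Lama5 52.6% (43.9 to 61.1%) of 137 in mural cells. Schwann cells were mixed, with 51.8% (46.3 to 57.3%) Lama4, 43.3% (37.9 to 48.9%) Lama2 and 4.85% (2.80 to 7.75%) Lama5 of 330 UMIs. Tags at the 3′ end are not scaled by transcript length. The shares are meant to compare classes, and an order of chains within a class is an order of UMI counts only. Of 93 Schwann cells, 44 held Lama4 without Lama2, 8 Lama2 without Lama4, 17 both and 24 neither, while 1282 of 2130 stromal cells held both and 232 of 246 satellite cells held Lama2 alone of this pair. At this sparse detection the counts do not show whether single Schwann cells differed in the pair. The shares moved with the choice of cells. In Schwann cells Lama2 came to 49.7% with a gate of 5 UMIs over 3 genes and to 57.1%, beside 39.5% Lama4, with barcodes of several gates kept, so that Lama4 was no longer the larger share under either, and every barcode of equal weight gave 35.0% Lama2 and 59.5% Lama4. In mural cells Lama2 was at 37.0% and Lama5 at 36.1% with a gate of 5 UMIs over 3 genes, and at 44.2% and 36.5% with every barcode of equal weight, so that Lama5 was not the largest share under either. Keeping barcodes that passed several gates brought Lama2 to 73.0% and Lama5 to 6.15% in mural cells and Lama2 to 58.0% in endothelial cells. That mural set had 193 barcodes, 92 of which also passed the stromal gate, and its stromal check genes stood at 81.1% of their stromal level.

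**Figure D2:**
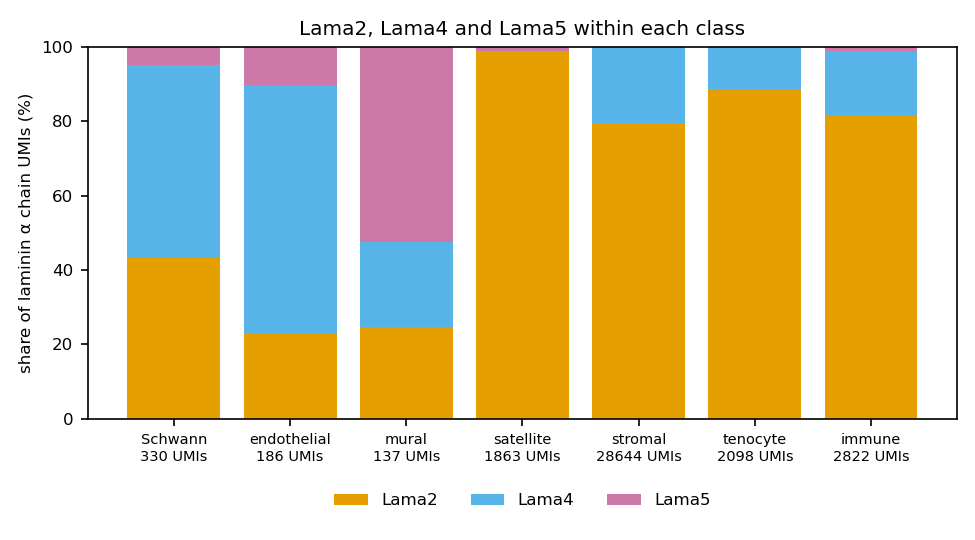
Share of Lama2, Lama4 and Lama5 among the summed UMIs of these 3 genes in each class, as stacked bars from 0 to 100%, with the number of UMIs under each class. Lama2 fills 98.8% of the satellite bar, Lama4 66.7% of the endothelial bar and Lama5 52.6% of the mural bar.

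Mural cells were also read by subtype markers. Subtypes were assigned by a rule set after the data were seen, at least 2 UMIs of a subtype's markers and at least 3 times those of the other subtypes. In 43 smooth muscle cells (Myh11, Cnn1, Lmod1 and Actg2) Lama5 was at 171.4 CPM (133 to 217) and Lama2 at 4.97 CPM (0.60 to 17.9), from 69 and 2 UMIs, and a stricter rule that left 32 such cells gave 168.5 CPM for Lama5 from 50 UMIs and the same 2 UMIs of Lama2. The other 20 mural cells held 3 UMIs of Lama5 (34.2 CPM, 7.06 to 100.1) and 32 UMIs of Lama2 (365 CPM, 249.9 to 516). The intervals of the 2 sets overlapped for neither gene, but the Lama2 outside the smooth muscle cells lay in 7 cells, 13 UMIs of it in 1 barcode, which are few cells to compare. In the smooth muscle cells Lama5 made up 74.2% and Lama4 23.7% of the α chain UMIs. Lama4 was at 54.6 CPM (34.2 to 82.7) in smooth muscle cells and 103 CPM (47.0 to 195) in the others. In 48 endothelial capillary cells (Gpihbp1, Rgcc and Car4) no Lama2 UMI was found, which allows up to 12.4 CPM, and all 43 UMIs lay in 4 of the other 31 cells, 27 of them in 1 barcode, too few cells to show a division. Lama4 was present in both sets, at 256 CPM (196 to 328) in capillary cells and 228 CPM (174.5 to 292) in the others.

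The β chains gave another division. Lamb1, the β1 chain (chromosome 12, 31265146 to 31329644), was at 201 CPM (195 to 207) in stromal cells, 101 CPM (75.5 to 133) in endothelial cells, 25.1 CPM (14.9 to 39.7) in Schwann cells, 14.3 CPM (5.74 to 29.4) in mural cells and 7.11 CPM (4.14 to 11.4) in satellite cells. Stromal and endothelial cells were high and the remaining 3 classes overlapped with their neighbours. The mural level, from 7 UMIs, ranged from 2.33 CPM with barcodes of at least 5000 UMIs over 34.7 CPM with equal weight to 97.2 CPM with barcodes of several gates kept, where endothelial cells were at 126 CPM. Schwann cells were at 44.7 CPM with a gate of 5 UMIs over 3 genes and at 67.1 CPM with several gates. The satellite level was 3.54% (2.06 to 5.67%) of the stromal level and the mural level 7.11% (2.86 to 14.7%), and neither interval left out the share at which the stromal check genes stood there.

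Lamb2, the β2 chain (chromosome 9, 108479847 to 108490530), which is known from synaptic and vascular basement membranes, was high in mural and stromal cells. Mural cells held 233 CPM (192 to 279) and stromal cells 204 CPM (197.5 to 209.8), followed by endothelial cells with 87.5 CPM (63.8 to 117), Schwann cells with 33.5 CPM (21.4 to 49.8) and satellite cells with 25.5 CPM (19.5 to 32.8). Mural and stromal cells did not differ beyond their error (log2 0.19, −0.09 to 0.46), and stromal cells were the higher of them with a gate of 5 UMIs over 3 genes (211 against 162 CPM) and with every barcode of equal weight (188 against 183 CPM). Lamb1 accounted for 5.79% (2.36 to 11.6%) of the β chain UMIs in mural cells, against 53.6% (43.2 to 63.8%) in endothelial, 49.7% (48.6 to 50.7%) in stromal, 42.9% (27.7 to 59.0%) in Schwann and 21.8% (13.2 to 32.6%) in satellite cells. With every barcode of equal weight mural and satellite cells both stood at 15.9%, and with barcodes of several gates kept the mural share was 30.05%. Smooth muscle cells carried 108 of the 114 Lamb2 UMIs of the class, at 268 CPM (220.0 to 324).

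Lamc1, the γ1 chain that most laminins contain (chromosome 1, 153218922 to 153332786), varied least among the 6 laminin chains, with a 3.03-fold range. It was at 376 CPM (368 to 384) in stromal cells and at 161 (128.5 to 200), 147 (115 to 185), 128 (103.5 to 157) and 124 CPM (110.5 to 139) in endothelial, mural, Schwann and satellite cells. Stromal cells stood above the other 4, which could not be separated from their neighbours by counting error. Immune cells held 37.0 CPM, so that each of the 5 classes was 3.36-fold or more above background.

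Nidogens link laminin to collagen IV. Nid1 (chromosome 13, 13437602 to 13512275) was highest in stromal cells, with 917 CPM (904 to 929.8), 185 CPM (149 to 226) in endothelial cells, 124 CPM (99.7 to 153) in Schwann cells, 71.4 CPM (49.7 to 99.3) in mural cells and 19.7 CPM (14.4 to 26.1) in satellite cells. Each class differed from the next one in this order beyond counting error, but some steps turned with the choice of cells. With a gate of 5 UMIs over 3 genes endothelial and Schwann cells were at 152 and 153.5 CPM. Mural cells passed Schwann cells with barcodes of several gates kept (422 against 204 CPM) and with every barcode of equal weight (116 against 107 CPM). With several gates they also passed endothelial cells (357 CPM). With barcodes of at least 5000 UMIs the mural level was 44.3 CPM. The mural level was 7.79% (5.42 to 10.8%) of the stromal one, an interval that includes the 5.85% of the stromal check genes there. In satellite cells Nid1 was at 2.14% (1.58 to 2.85%) of its stromal level, under the 3.15% of the stromal check genes, and its level there did not differ from that of immune cells (14.8 CPM, log2 0.41, −0.04 to 0.83).

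Nid2 (chromosome 14, 19751257 to 19811787) was spread otherwise. Its level was 58.3 CPM (39.4 to 83.3) in endothelial cells, 55.3 CPM (52.1 to 58.5) in stromal cells, 37.7 CPM (24.8 to 54.8) in Schwann cells, 9.62 CPM (6.10 to 14.4) in satellite cells and 4.08 CPM (0.49 to 14.7), or 2 UMIs, in mural cells. The mural value was 7.38% (0.894 to 26.7%) of the stromal level, which includes the share of the stromal check genes. Endothelial and stromal cells did not differ beyond their error, and the satellite and mural levels did not differ from the 8.37 CPM of immune cells. Nid1 took 94.3% (94.0 to 94.6%) of the nidogen UMIs in stromal cells, 76.7% (68.0 to 84.1%) in Schwann cells and 76.0% (67.5 to 83.2%) in endothelial cells, so that Nid2 had a larger part in Schwann and endothelial than in stromal cells. The Nid2 part was 32.9% (22.1 to 45.1%) in satellite cells, an interval that overlapped both, and 36.1% in immune cells. With barcodes of several gates kept Nid1 was at 85.9% in Schwann and 91.0% in endothelial cells, against 94.2% in stromal cells.

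Perlecan, encoded by Hspg2 (chromosome 4, 137468751 to 137570630), is a large heparan sulphate proteoglycan that binds laminin, nidogen and dystroglycan. It was at 299 CPM (254 to 351) in endothelial cells, 282 CPM (275 to 289) in stromal cells, 261 CPM (225 to 301) in Schwann cells, 143 CPM (129 to 159.5) in satellite cells and 75.5 CPM (53.1 to 104) in mural cells. The first 3 classes overlapped, with log2 differences of 0.09 (−0.15 to 0.32) and 0.11 (−0.10 to 0.33) between neighbours. Satellite and mural cells were lower, each beyond counting error, although mural cells were above satellite cells with barcodes of several gates kept (185 against 147 CPM). In the capillary cells Hspg2 reached 475 CPM (392 to 570.3).

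Agrin, encoded by Agrn (chromosome 4, 156165290 to 156197533), was the member that was highest in Schwann cells. The levels were 60.0 CPM (43.4 to 80.8) in Schwann cells, 28.6 CPM (15.6 to 47.9) in mural cells, 15.6 CPM (6.71 to 30.6) in endothelial cells, 6.57 CPM (5.52 to 7.77) in stromal cells and 5.44 CPM (2.90 to 9.30) in satellite cells. Schwann cells exceeded mural cells by 1.07 on the log2 scale (0.17 to 2.05). Satellite cells did not differ from immune cells (4.87 CPM) beyond counting error (log2 0.16, −0.76 to 0.95), and stromal cells were 1.35-fold above them. A UMI of Agrn was found in 29 of 93 Schwann cells and no single barcode gave more than 11.6% of the 43 UMIs. Tags at the 3′ end do not tell the neural splice form from the others.

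Depth differed between classes, so a random 2000 UMIs of each cell were also drawn, and no cell was too shallow for this. In satellite cells Lama2 was then found in 66.7% (60.4 to 72.5%) of cells and Lama4 in 0 of 246, which allows a share of up to 1.22%, against 9.87% and 2.95% of immune cells. Without thinning the shares were 94.7% for Lama2 and 0.407% for Lama4. In Schwann cells the thinned shares were 36.6% (26.8 to 47.2%) for Lama4, 32.3% (22.9 to 42.7%) for Hspg2, 14.0% (7.66 to 22.7%) for Lama2 and 12.9% (6.85 to 21.4%) for Agrn, and the unthinned ones 65.6%, 72.04%, 26.9% and 31.2%. Immune cells held Hspg2 in 3.16% and Agrn in 1.13% after thinning, below the Schwann intervals, whereas the Lama2 interval of Schwann cells included the immune share. Lama2 was found in 2.53% (0.308 to 8.85%) of endothelial cells after thinning, below the immune share, and in 11.1% (4.59 to 21.6%) of mural cells, an interval that includes it. Mural cells held Lama5 in 27.0% (16.6 to 39.7%) of cells and stromal cells in 0.047%, with 0.179% in immune cells.

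**Figure D3:**
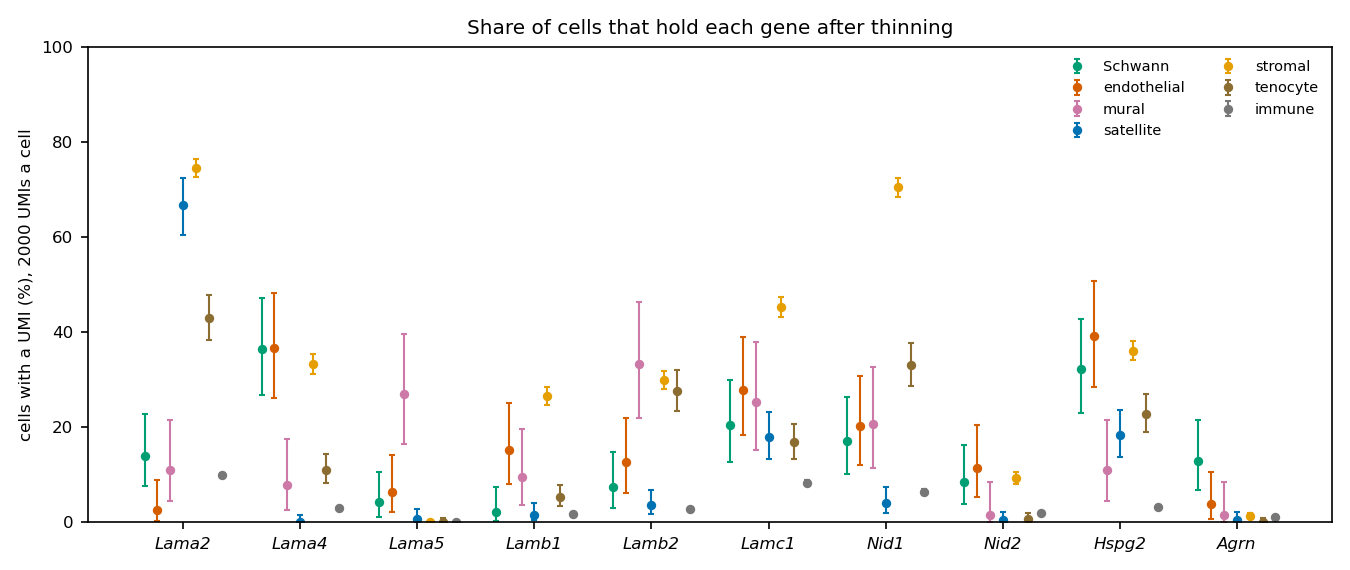
Share of cells with at least 1 UMI of each gene after thinning every cell to 2000 UMIs, in percent, with exact binomial 95% intervals as bars, for 7 classes. In satellite cells Lama2 is at 66.7% and Lama4 at 0, and only mural cells pass 20% for Lama5, at 27.0%.

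Each class was then set against stromal cells, the largest class, to ask which members distinguish it. A gene was called higher or lower when the CPM ratio was at least 2-fold and its interval left out no difference, among genes with at least 20 UMIs over both classes. All 10 members could be read, and the 4 comparisons share the stromal cells. In Schwann cells 2 members were higher, Agrn (9.12-fold, log2 3.19, 2.66 to 3.69) and Lama5 (log2 5.41, 4.21 to 6.67), where 18.3% of 14631 genes were called higher. Another 5 were lower, where 12.9% of genes were called lower, namely Lamb1 (log2 −3.00, −3.76 to −2.34), Nid1 (−2.88, −3.20 to −2.58), Lamb2 (−2.60, −3.25 to −2.03), Lama2 (−2.44, −2.69 to −2.21) and Lamc1 (−1.55, −1.86 to −1.25). Hspg2, Lama4 and Nid2 lay within 2-fold. The median over the members was −1.05 and that over all genes 0.19, or 0.39 with genes at 0 in a class set at 3 counts.

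In endothelial cells Lama5 (log2 6.14, 4.99 to 7.36) and Agrn (1.24, 0.002 to 2.26) were higher, and Lama2 (−3.70, −4.16 to −3.27), Nid1 (−2.31, −2.62 to −2.02), Lamc1 (−1.22, −1.55 to −0.91) and Lamb2 (−1.22, −1.68 to −0.80) were lower. This made 2 of 10 members higher, where 14.1% of 14612 genes were, and 4 of 10 lower, where 10.8% were. The Agrn call rested on 8 UMIs and was lost with barcodes of at least 5000 UMIs, with another scaling (trimmed mean of M values, TMM) and without the barcode that held most of them. Lamb2 and Lamc1 lost theirs when barcodes that passed several gates were kept. Lamb1 (log2 −0.99, −1.41 to −0.60) lay at the 2-fold line. It passed the line with TMM, with barcodes of at least 1000 UMIs and at an immune threshold of 0.05% (101.4 against 209.5 CPM). It also did so without the barcode that held most UMIs and with the pooled library profile subtracted. The members' median was −0.60 and that of all genes 0.07 (0.34 with genes at 0 set at 3 counts).

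In mural cells Lama5 (log2 8.13) and Agrn (2.12, 1.21 to 2.91) were higher, where 12.1% of 14545 genes were called higher. The 7 lower members, where 12% of genes were lower, were Lama2 (−3.97, −4.50 to −3.48), Lamb1 (−3.81, −5.13 to −2.77), Nid2 (−3.76, −6.81 to −1.90), Nid1 (−3.68, −4.20 to −3.21), Lama4 (−2.15, −2.71 to −1.64), Hspg2 (−1.90, −2.41 to −1.44) and Lamc1 (−1.36, −1.71 to −1.02). Lamb2 was within 2-fold. The members' median was −2.02, and that of all genes −0.13 (0.24 with genes at 0 set at 3 counts). With barcodes of several gates kept only Nid1 of these 7 stayed lower by 2-fold, in the set that is close to stromal cells in its stromal check genes.

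In satellite cells Lama5 (log2 4.07, 2.95 to 5.27) was the only member called higher, where 10.2% of 14730 genes were, and 6 were lower, where 22.4% were. These were Lama4 (−9.39), Nid1 (−5.54, −5.99 to −5.13), Lamb1 (−4.82, −5.60 to −4.14), Lamb2 (−3.00, −3.39 to −2.63), Nid2 (−2.52, −3.19 to −1.93) and Lamc1 (−1.60, −1.77 to −1.43). Lama2 stayed at 71.0% (67.8 to 74.4%) of the stromal level. Hspg2 (−0.97, −1.14 to −0.82) lay at the 2-fold line and passed it under 4 of the other settings. The median over members was −2.06, against −0.23 over all genes (−0.19 with genes at 0 set at 3 counts).

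**Figure D4:**
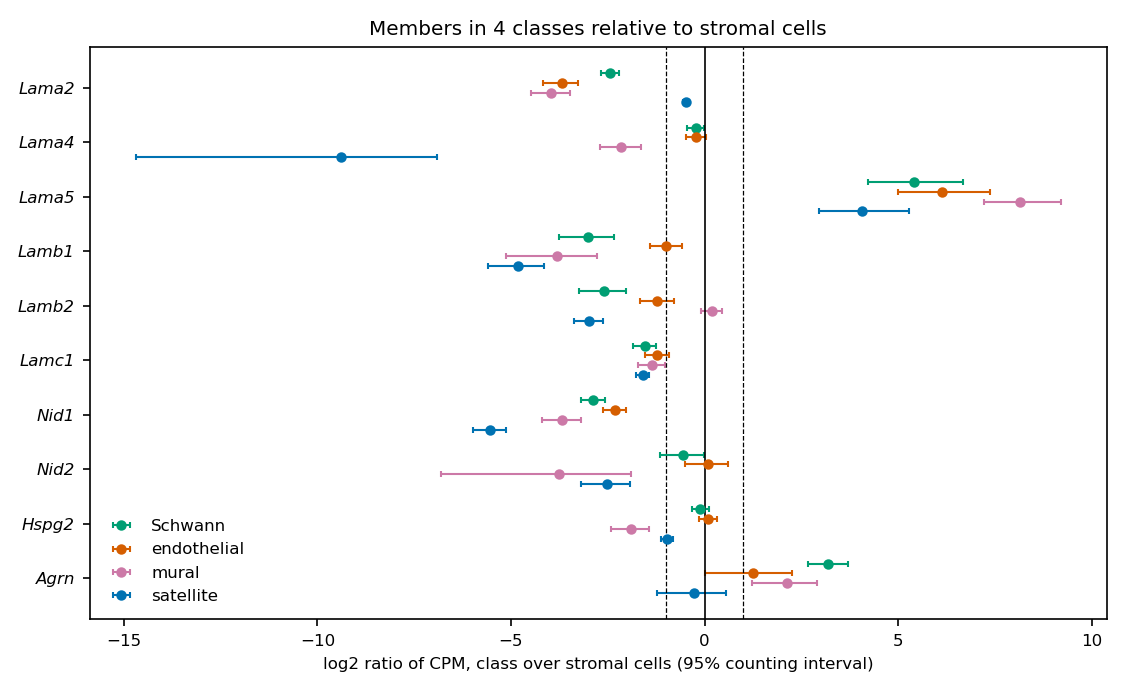
Log2 ratio of CPM in Schwann, endothelial, mural and satellite cells over stromal cells for the 10 genes, with exact 95% intervals as bars and dashed lines at 2-fold. Lama5 lies to the right of the line in all 4 classes (4.07 to 8.13), Nid1 to the left in all 4 (−5.54 to −2.31), and Lama4 of satellite cells, from 1 UMI, has the widest interval.

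Stromal cells were not uniform. By the same rule, 412 were adventitial (Pi16, Dpp4 and Sema3c), 140 parenchymal (Smoc2, Cxcl14 and Hsd11b1), 131 nerve-sheath-like (Apod, Tenm2 and Col28a1) and 37 carried Gdf10 and Inmt. Nid1 was at 1417 CPM (1386 to 1448) in adventitial and 749.7 CPM (707 to 795) in parenchymal cells, a log2 difference of 0.92 (0.83 to 1.01), and Lama4 at 429.6 and 203.5 CPM, a difference of 1.08 (0.91 to 1.25). Lamc1 and Lamb2 differed the same way, each by 0.60 (0.47 to 0.74 and 0.40 to 0.80). Hspg2, Nid2, Lama2, Lamb1 and Agrn went the other way. Hspg2 was at 188 CPM in adventitial and 493 CPM in parenchymal cells (log2 −1.39, −1.53 to −1.25), Nid2 at 25.2 and 82.9 CPM (−1.72, −2.08 to −1.36) and Lama2 at 959 and 1500 CPM (−0.65, −0.72 to −0.57). Lamb1 differed by −0.28 (−0.45 to −0.12) and Agrn by −1.29 (−2.37 to −0.16). A stricter rule left 96 adventitial cells, with Lama2 at 633 CPM, and too few parenchymal ones to compare. By the rule used here adventitial cells were deeper, with a median of 14601 UMIs against 8582. Nerve-sheath-like cells were lower than parenchymal cells in 7 of the 10 genes by intervals that left out no difference and in Agrn from 2 UMIs, with Lama4 equal within error (log2 0.03, −0.22 to 0.28). Cells with Gdf10 and Inmt had the highest Lamb2 of the 4, at 325 CPM (257 to 405.5). Lama5 stayed at 4 UMIs or fewer in each of the 4.

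Tenocytes, kept apart from stromal cells, were lower than these in 9 of the 10 genes, with Lamb2 the nearest (164 against 204 CPM, log2 −0.31, −0.43 to −0.19) and Nid2 the farthest (−3.60, −4.36 to −2.94). Satellite cells with Pax7 (159 cells) had Lama2 at 840 CPM (796 to 886) and Lama4 at the same single UMI.

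The partners of these proteins were read from a list of 30 genes, of which 26 or 27 had enough UMIs in each comparison. In Schwann cells 9 partners were higher than in stromal cells and 11 lower, in endothelial cells 8 and 6, in mural cells 9 and 5 and in satellite cells 7 and 14. Of all genes tested, 18.3% were higher and 12.9% lower in Schwann, 14.1% and 10.8% in endothelial, 12.1% and 12% in mural and 10.2% and 22.4% in satellite cells. Among collagens, Col4a1 and Col4a2 (the widespread chains of the collagen IV network) were lowest in Schwann cells, at 76.7 CPM (57.8 to 99.9) and 72.5 CPM (54.2 to 95.1), and highest in endothelial cells, at 1024 CPM (939 to 1116) and 667 CPM (598 to 741). Col18a1, a basement membrane collagen with heparan sulphate chains, was 16.2-fold higher in Schwann than in stromal cells (693 against 42.7 CPM, log2 4.02, 3.86 to 4.18). Tinagl1, a secreted protein of basement membranes, was at 559 CPM in mural, 402 CPM in endothelial and 106 CPM in Schwann cells, and had 7 UMIs in stromal cells and none in satellite cells. The Schwann value came from 11 of 93 cells, with 36.8% of its 76 UMIs in 1 barcode, and was 67.8 CPM without that barcode.

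Of 9 receptors of laminin and agrin in this list, 8 had enough UMIs. Schwann cells were higher than stromal cells in 6 of them, endothelial and mural cells in 3 each and satellite cells in 4, beside the shares of all genes given above. Satellite cells were lower in 2, Itga6 and Lrp4, and the other classes in none. Dag1, dystroglycan, which binds the α2 chain, perlecan and agrin, was at 745 CPM (711 to 781) in satellite and 609.6 CPM (554 to 669.5) in Schwann cells against 122 CPM in stromal cells. Itga6 and Itga7 encode α subunits of laminin-binding integrins. Itga6 was at 505 CPM in endothelial cells (log2 6.59 over stromal cells, 6.27 to 6.93) and at 94.9 CPM in Schwann cells, while Itga7 was higher in Schwann (79.5 CPM), mural (75.5 CPM) and satellite cells (43.1 CPM) than in stromal cells (5.86 CPM). Bcam, a receptor for the α5 chain, was at 369 CPM in mural and 146 CPM in endothelial cells, at 16.7 CPM in satellite cells and at 2.79 and 2.48 CPM in Schwann and stromal cells. For agrin, Musk, the kinase of its receptor complex, was at 66.5 CPM (56.6 to 77.7) in satellite cells and at most 6.15 CPM in the other 4 classes. Lrp4, the subunit that binds agrin, was at 16.7 CPM (8.65 to 29.2) in Schwann, 13.6 CPM in endothelial, 12.2 CPM in mural, 6.67 CPM in stromal and 0.84 CPM in satellite cells, from 12, 7, 6, 140 and 2 UMIs, and at 25.5 CPM in tenocytes. The Schwann, endothelial and mural intervals overlapped.

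**Figure D5:**
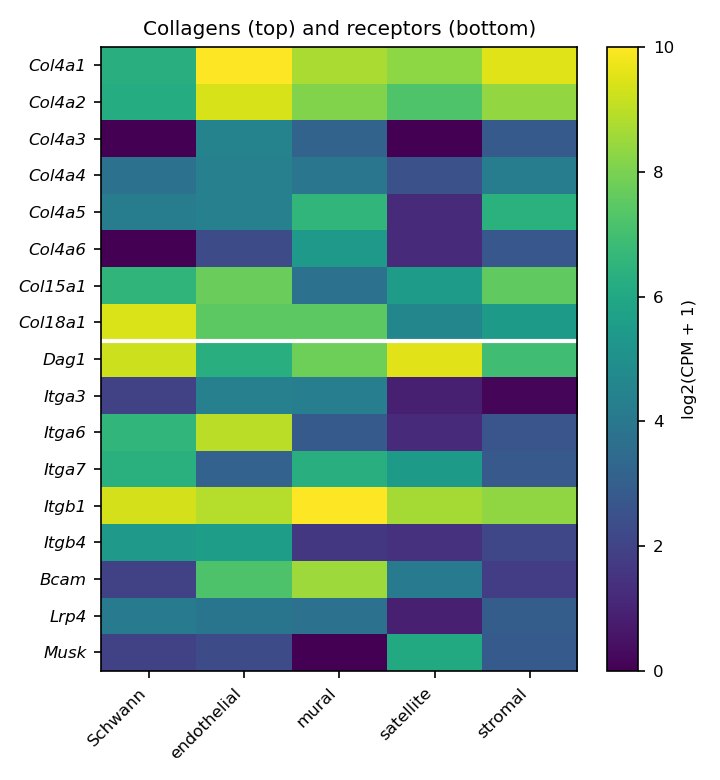
Level of 8 collagens (above the white line) and 9 receptors (below it) in the 5 classes, as log2(CPM + 1) by colour. Col4a1 is brightest in endothelial cells (1024 CPM), Col18a1 stands out in Schwann cells (693 CPM), Dag1 is high in satellite and Schwann cells (745 and 609.6 CPM), and Musk is seen in satellite cells (66.5 CPM).

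Across 10 groups (the 5 classes, tenocytes, immune cells and 3 subgroups, which share cells with their classes), the members varied together only in part. Pearson r of log2(CPM + 10) was 0.933 for Nid1 with Lamb1, 0.878 for Nid1 with Lama4, 0.827 for Lama4 with Lamb1 and 0.721 for Lama5 with Agrn, and −0.651 for Lama2 with Lama5. Among 14805 genes the most similar to Lama2 was Medag (0.962), to Lama4 Ssbp3 (0.969), to Lama5 Orc4 (0.993), to Lamb1 Sult5a1 (0.972) and to Lamb2 Gpc6 (0.966). For Lamc1 it was Ctdsp2 (0.957), for Nid1 Mmp14 (0.966), for Nid2 Zfp820 (0.930), for Hspg2 Nbea (0.953) and for Agrn Atg4a (0.976). The points share 1 library and include small groups, and these values are descriptions.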

How the data were processed

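UMI counts per gene and barcode were deposited as raw whole numbers that the authors made with Cell Ranger (8.0.1 per the file headers, 7.1.0 in the submitters' processing notes, which also list Seurat 4.30 and mm10) and did not normalize. The study's methods name both GRCm38 and GRCm39 with EGFP. The barcodes had passed Cell Ranger's cell calling, so empty droplets were not used. Gene positions and promoters came from RefSeq tables of GRCm38.p6.

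Barcodes with at least 2000 UMIs, more than 200 genes and under 10% mitochondrial UMIs were gated as the text states. The study's DecontX and DoubletFinder were not used here. The immune threshold was set on its distribution. Members, marker lists and partner list were chosen with earlier results of these data known. The named genes were the members, the partner list and the gene most similar to each member.

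UMIs were summed per class (716878 in Schwann, 514402 in endothelial, 490205 in mural, 2391204 in satellite and 20991461 in stromal cells). CPM carry exact Poisson, shares exact binomial (Clopper-Pearson) and log2 ratios exact conditional 95% intervals, a limit for 0 is 3 counts, and no significance test was made. UMIs of 1 library are not replicates. Ratios were computed over all genes, and the same code was also run on counts simulated from the class sums with known folds. The tools were edgeR 4.0.16 (TMM factors only), scanpy 1.11.5 (Scrublet), scipy 1.17.1, numpy 2.4.6 and pandas 2.3.3 under Python 3.11.15. The alternatives were other depth, gate, filter, immune, doublet, free RNA, weighting, scaling and thinning choices. The immune thresholds of 0.05% and 0.2%, leaving out shared or single barcodes, and the subtype rule were added after the data were seen.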

Additional observations from a re-analysis of the deposited data

How the results depend on the processing

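No called ratio changed sign under any setting in which ratios were recomputed. Of 557 recomputed log2 ratios, 11 lost a call and 9 gained one. Of 600 recomputed levels, 95 left the counting interval. Keeping barcodes of several gates moved 20 of 50 levels by over 1.5 times, 9 of them mural, and each other setting moved at most 6. Of 100 recomputed shares of cells with a UMI, 29 left the counting interval when cells were thinned to 1000 UMIs and 44 when they were not thinned. Of 112 recomputed counts of members past 2-fold, 5 moved by over 1.5 times. The endothelial count of higher members was 1 instead of 2 with barcodes of at least 5000 UMIs, with TMM factors and without the barcode that held most UMIs of a gene. With barcodes of several gates kept, lower members numbered 2 instead of 4 in endothelial and 1 instead of 7 in mural cells. TMM shifted every log2 ratio by −0.39 in Schwann, −0.35 in endothelial, −0.23 in mural and 0.04 in satellite cells.

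Of 180 recomputed shares of α chain UMIs, 31 left the counting interval. With barcodes of at least 5000 UMIs, Lama4 was 58.4% in endothelial cells and Lama2 2.15% and Lama5 71.0% in mural cells. With a gate of 5 UMIs over 3 genes, Lama2 was 49.7% in Schwann, 5.67% in endothelial and 37.0% in mural cells, Lama4 84.4% in endothelial and Lama5 36.1% in mural cells. With barcodes of several gates kept, Lama2 was 57.1% in Schwann, 58.0% in endothelial, 73.0% in mural and 98.1% in satellite cells, Lama4 39.5% in Schwann, 36.5% in endothelial and 0.708% in satellite cells, and Lama5 5.58% in endothelial and 6.15% in mural cells. At an immune threshold of 0.2%, Lama2 was 34.6% in mural cells. With every barcode of equal weight, Lama2 was 35.0% in Schwann, 15.5% in endothelial, 44.2% in mural and 80.3% in stromal cells, Lama4 59.5%, 75.4% and 19.7% in Schwann, endothelial and stromal cells, and Lama5 36.5% in mural cells. Without the barcode that held most UMIs of a gene, Lama2 was 11.3% and Lama4 78.7% in endothelial cells. Lama4 was 0 in satellite cells without that barcode, without the highest Scrublet scores and with the pooled library profile subtracted. The causes were not tested, except that several gates admit stromal barcodes by construction.

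No paired analysis was possible because the values come from 1 library without a replicate and from no test. The small classes, of 63 to 93 cells, limit every value from few UMIs, and the spread between animals cannot be seen.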
